A study of Mus musculus with 20 samples.

Results

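Immediate early response genes are described here in the livers of mice given a maple syrup extract on a high-fat diet. The group was taken by name: Fos, Jun, Junb, Egr1, Ier2, Ier3, Myc, Nr4a1, Klf6 and Gadd45b. These are 10 of the 18193 genes that have a probe set of their own on the array, and each was read from its probe set with the highest mean level. The choice used no measured difference between mice, but it was made with earlier results of these data known.

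One diet contained 45 kcal% fat and 0.05% of the extract (MSXH, 10 mice), and the other was the high-fat diet alone, also with 45 kcal% fat (HFD, 10 mice). All 20 mice were male C57BL/6J animals, an inbred laboratory strain, bought at 3 weeks of age, acclimated on a low-fat diet with 10 kcal% fat and labelled as 8 weeks old. They ate their diet for 4 weeks and were killed on day 30 after a 16 h fast, a state in which stress and fasting hormones act on the liver. Each mouse gave 1 array of whole-liver RNA. A low-fat group and a group given 0.02% extract are named in the study design and were not analysed here.

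Immediate early genes are switched on within minutes of a stimulus, from transcription factors already present in the cell, such as the serum response factor with its ELK partners and CREB, so new protein is not needed. Their RNAs are short-lived, and many of their products are transcription factors that drive a later wave of genes or inhibitors that end the signal. In liver they are known for the response to partial hepatectomy, to growth factors and cytokines, and to handling of the tissue.

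The deposited log2 levels are compressed between arrays: the median SD over the 20 mice was 1.48e-05 for the tested genes. They cannot be read as fold changes, and the spread of one gene cannot be set against that of another as a spread in RNA. Each mouse is therefore given in SD units, the distance of its level from the gene's mean over 20 mice divided by the gene's SD over 20 mice. Diet differences are given as Hedges' g, MSXH minus HFD, the difference of the group means over their pooled SD with a correction for small samples. Array medians lay between 6.505 and 6.506, and no pair of arrays was identical. The hepatocyte genes Alb, Apoa1, Ttr and Cps1 had mean levels from 13.77 to 14.74, near the top of the deposited range. In whole liver, fewer cells of a type and less RNA per cell cannot be told apart.

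No immediate early gene passed the test between the diets. With limma and Benjamini-Hochberg adjustment, 0 of the 9 members tested were called, where 0% of all 11728 genes tested were called. At an unadjusted p under 0.05 the count was also 0 of 9, where 3.62% of all genes lay under it, 1.88% higher and 1.74% lower in MSXH. A Wilcoxon test called 0 genes with 399 at an unadjusted p under 0.05. Junb had a mean level of 6.48, below the filter at 6.505, and was read from a fit of all 18193 genes, in which 0% were called. Of the 9 members tested, g was above 0 for 2 and below 0 for 7, with a median of -0.0771. Over all genes tested, g was below 0 in 50.6% and its median was -0.00692. The MSXH and HFD mice overlapped for all 10 genes.

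Fos, Jun and Junb encode subunits of AP-1, the dimeric factor in which a FOS protein pairs with a JUN protein. Fos had a mean level of 6.72 and an SD of 0.000223 over the 20 mice. It ran from -1.68 over a median of -0.113 to 2.00 SD in MSXH mice, and from -1.27 over -0.0835 to 1.43 SD in HFD mice. The MSXH mice held both the lowest value, in replicate 4, and the highest, in replicate 5. Jun, the main partner of FOS, had a mean level of 7.57 and an SD of 0.00205. It ran from -1.35 over 0.107 to 1.44 SD in MSXH mice, and from -1.68 over 0.142 to 1.67 SD in HFD mice, and here the HFD mice held both ends. Junb, a JUN protein that can restrain c-JUN, ran from -1.41 over -0.111 to 0.806 SD in MSXH mice, and from -1.81 over 0.368 to 2.20 SD in HFD mice. HFD replicate 10 was its highest mouse and HFD replicate 4 its lowest. The diet difference was g = -0.242 for Fos (95% interval -1.12 to 0.637), 0.181 for Jun (-0.697 to 1.06) and -0.406 for Junb (-1.29 to 0.479). The permutation p-values, two-sided and with 100000 resamples as for all members, were 0.575, 0.671 and 0.355. Both probe sets of Jun gave a g above 0, and their levels correlated at r = 0.85 over the mice.

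Egr1, Klf6, Nr4a1 and Myc encode transcription factors of other families. Egr1 is a zinc-finger factor that binds GC-rich DNA and is a textbook target of serum response factor. Its mean level was 7.53 with an SD of 0.00167. It ran from -1.59 over -0.135 to 0.797 SD in MSXH mice, and from -1.50 over 0.572 to 1.35 SD in HFD mice. Of the 10 MSXH mice, 2 lay above the HFD median. Nr4a1 is an orphan nuclear receptor known in liver as a target of glucagon and cAMP signalling that promotes glucose production. It ran from -0.780 over -0.351 to 0.343 SD in MSXH mice, and from -1.04 over 0.151 to 3.39 SD in HFD mice. The MSXH mice lay close together (SD 6.0e-05, against 0.000227 in HFD mice), and 1 of 10 lay above the HFD median. HFD replicate 2 was the highest mouse. These were the 2 members with the g farthest from 0: -0.558 for Egr1 (95% interval -1.45 to 0.335, permutation p = 0.205) and -0.643 for Nr4a1 (-1.54 to 0.256, permutation p = 0.147). Neither difference was larger than the spread between mice.

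Klf6, a zinc-finger factor of the Krüppel-like family, had a mean level of 7.42. It ran from -1.69 over 0.396 to 1.29 SD in MSXH mice, and from -1.57 over -0.562 to 1.66 SD in HFD mice, with 8 of 10 MSXH mice above the HFD median (g = 0.336, 95% interval -0.546 to 1.22, permutation p = 0.435). Of its 5 probe sets, 4 had a g above 0 and the other had -0.0070. Their correlations with the probe set used ran from 0.23 to 0.79. Myc, the growth factor-induced regulator of ribosome production and cell growth, had a mean level of 7.03. It ran from -1.02 over -0.262 to 2.47 SD in MSXH mice, and from -0.712 over -0.250 to 2.79 SD in HFD mice. A single mouse of each diet, replicate 5 in both, stood above the others. The diet difference of Myc was g = -0.0771 (95% interval -0.954 to 0.800, permutation p = 0.832).

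Ier2, Ier3 and Gadd45b encode smaller regulators. Ier2 is a nuclear protein with no DNA-binding domain of its own. It ran from -1.55 over 0.120 to 1.36 SD in MSXH mice, and from -1.21 over 0.0360 to 1.62 SD in HFD mice. Ier3 modulates cell survival and ERK signalling. It ran from -1.62 over -0.0275 to 1.95 SD in MSXH mice, and from -1.22 over -0.0423 to 1.95 SD in HFD mice. The medians of the diets lay close together for both genes (g = -0.0635 for Ier2, 95% interval -0.940 to 0.813, and g = -0.0200 for Ier3, -0.897 to 0.857). Gadd45b, a stress sensor that binds upstream kinases of the p38 and JNK pathways, had a mean level of 7.50. It ran from -1.24 over -0.107 to 1.02 SD in MSXH mice, and from -1.47 over 0.0599 to 2.34 SD in HFD mice, with HFD replicate 9 the highest (g = -0.206, 95% interval -1.09 to 0.673). All 3 probe sets of Gadd45b had a g below 0. The permutation p-values were 0.879 for Ier2, 0.963 for Ier3 and 0.637 for Gadd45b.

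**Figure D1:**
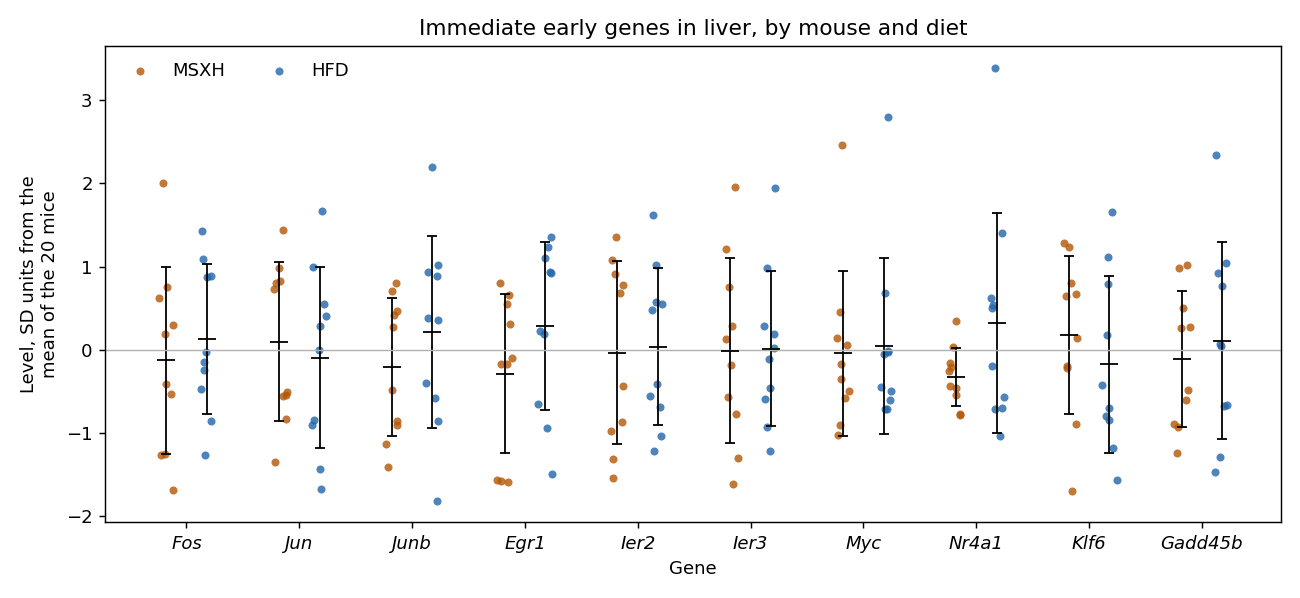
Level of each immediate early gene in each of 10 MSXH and 10 HFD mice, in SD units of the gene over 20 mice, with the mean and SD of each diet as a bar and whiskers. The MSXH and HFD points overlap for every gene, and single high points are seen for Nr4a1 in HFD (3.39 SD) and for Myc in both diets (2.47 SD in MSXH, 2.79 SD in HFD).

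**Figure D2:**
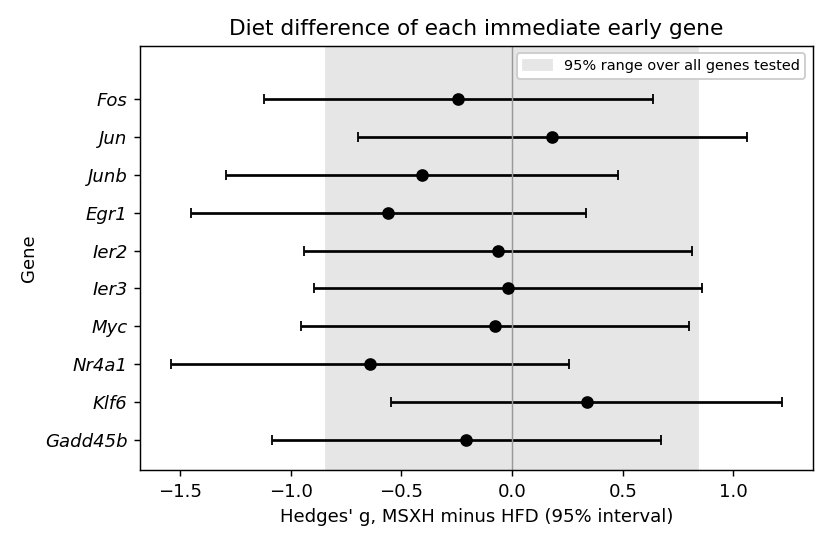
Hedges' g of each gene, MSXH minus HFD, with its 95% interval, over the grey range that holds 95% of the g of all 11728 genes tested (-0.839 to 0.839). All 10 intervals cross 0 and all 10 points lie within the grey range.

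No mouse was high in all 10 genes. The count of members above their own mean ran from 1 of 10 genes (replicate 4) to 7 of 10 (replicates 5, 7 and 9) in MSXH mice, and from 1 (replicate 8) to 8 (replicate 2) in HFD mice. MSXH replicate 4 was the lowest of its diet in Fos, Junb, Egr1, Ier2 and Klf6. HFD replicate 8 was the lowest of its diet in Fos, Egr1 and Ier3.

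Co-variation over the 20 mice was weak between most members and was strong for 1 pair. Over the 45 pairs, Pearson's r had a median of 0.13, with 30 pairs above 0 and 15 below. Egr1 and Ier2 varied together, with r = 0.78 (permutation p = 8.0e-05, adjusted p = 0.0036 over 45 pairs, n = 20 mice) and Spearman's rho = 0.70 (adjusted p = 0.0369). This was the only pair of the 45 called by r, or 2.22% of pairs, and 15.6% had an unadjusted p under 0.05. Within each diet r was 0.83 in MSXH mice and 0.77 in HFD mice, but the pair was not called in either diet alone. Without the 2 mice farthest from the Egr1 median r was 0.72. Among 11727 genes, Ier2 had the highest r to Egr1, and Egr1 the highest r to Ier2. Egr1 was lowest in MSXH replicates 4, 6 and 2 (-1.59, -1.59 and -1.56 SD), and Ier2 was lowest in MSXH replicate 4 too (-1.55 SD). The Ier2 levels had a gap between -0.41 and 0.48 SD, with 5 MSXH and 5 HFD mice on each side. Within the 10 mice above the gap the r of Egr1 with Ier2 was -0.047, and within the 10 below it was 0.56, a description on a split chosen after seeing the data. The pooled r includes the distance between these sides.

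The array median, a measure of overall array level, correlated with Egr1 at r = 0.19 and with Ier2 at 0.36. The difference between the 3' and 5' control probe sets of GAPDH, a measure of RNA length, correlated with them at -0.34 and -0.33. The same difference for the control probe sets of beta-actin correlated with them at -0.027 and -0.0038. After removing the array median the r of Egr1 with Ier2 was 0.77, and after removing the GAPDH control it was 0.75. The correlation ended under a further normalization of the deposited values: r was 0.32 after shifting all arrays to the same median, where the SD of the shift (5.90e-05) exceeds the SD of Ier2 itself (3.60e-05), and -0.32 after quantile normalization, which left Ier2 with 5 distinct values over 20 mice.

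**Figure D3:**
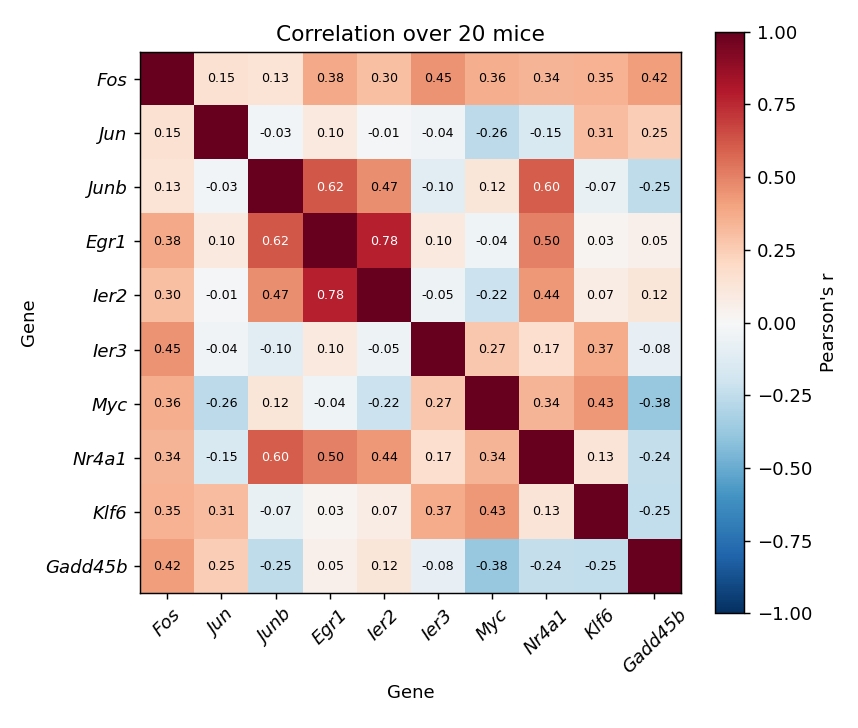
Pearson's r over 20 mice for each pair of immediate early genes, printed in each cell and coloured from blue (-1) over white (0) to red (1). Egr1 with Ier2 has the highest value (0.78), followed by Junb with Egr1 (0.62) and Junb with Nr4a1 (0.60).

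**Figure D4:**
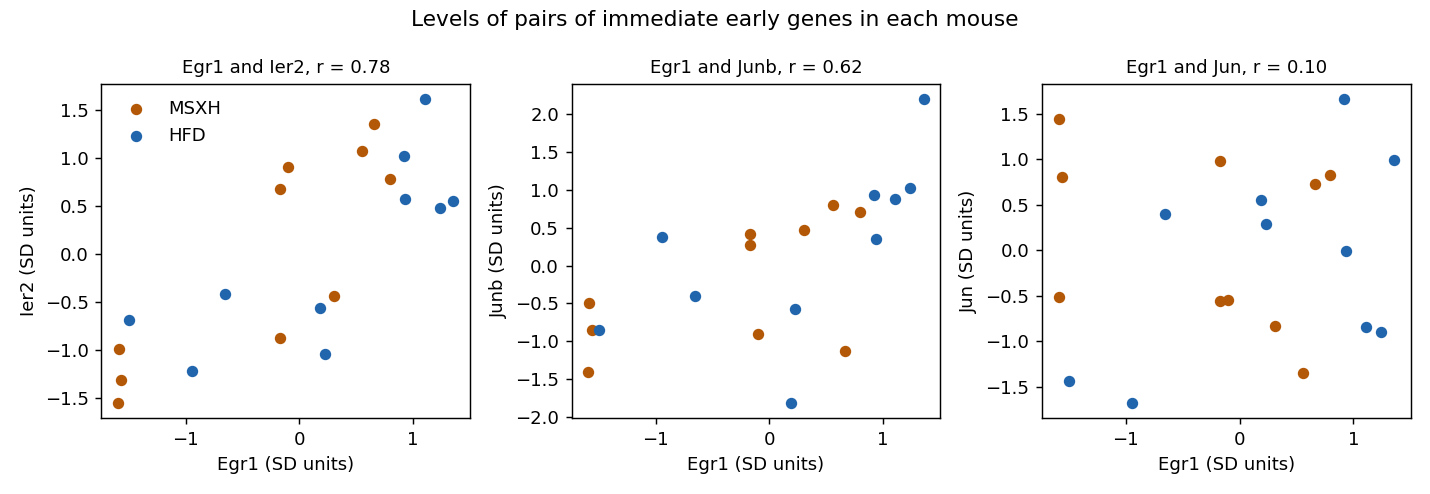
Levels of Ier2, Junb and Jun (vertical axes) against Egr1 (horizontal axes) in each of 10 MSXH and 10 HFD mice, in SD units of each gene over 20 mice. Mice low in Egr1 are low in Ier2 (r = 0.78) and mostly in Junb (r = 0.62), while Jun shows little relation (r = 0.10), and no mouse has an Ier2 level between -0.41 and 0.48 SD.

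Junb and Nr4a1 lay nearest to this pair without passing the threshold. The SD of Junb (1.96e-05) was below that of the array median (5.90e-05), and quantile normalization left Junb with 2 distinct values over 20 mice. Junb correlated with Egr1 at r = 0.62 (adjusted p = 0.0543) and rho = 0.67 (adjusted p = 0.0403), so the call depended on the measure. Within the diets its r with Egr1 was 0.58 in MSXH mice and 0.63 in HFD mice, and it was 0.68 without the 2 mice farthest from the Junb median. Junb with Nr4a1 had r = 0.60 (adjusted p = 0.0543) and rho = 0.61 (adjusted p = 0.0655), with r = 0.33 in MSXH mice and 0.67 in HFD mice. The difference between the diets was not tested. Without the 3 mice that stood apart in Nr4a1 or Myc, a setting chosen after seeing the data, r was 0.75 (adjusted p = 0.0109). Egr1 with Nr4a1 had r = 0.50 (adjusted p = 0.179). Ier2 with Nr4a1 had r = 0.0253 in MSXH mice and 0.71 in HFD mice, and HFD replicate 2 was the highest mouse of its diet in both genes. Ier2 and Junb lie on the same chromosome, 8, with 17 coding genes between them, and correlated at r = 0.47 (adjusted p = 0.300).

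The AP-1 genes were weakly correlated with each other. Fos correlated with Jun at r = 0.15 and with Junb at 0.13, and Jun with Junb at -0.0277. The r of Fos with the other 9 members lay between 0.13 and 0.45, the highest with Ier3 (adjusted p = 0.300). The r of Jun lay between -0.26 with Myc and 0.31 with Klf6. Myc with Klf6 had r = 0.43 (adjusted p = 0.300), and the lowest r of any pair was Myc with Gadd45b at -0.38. None of these pairs passed the threshold.

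The promoters of 7 members are in the RefSeq table of mouse build GRCm38.p6, each from 250 bases before to 50 bases after a start. Those of Junb and Nr4a1 are shown because, among the members, they had the highest r to Egr1 after Ier2 (0.62 and 0.50). Those of Fos and Jun are shown as the other AP-1 genes of the group. Capitals mark the letters TGACG, or CGTCA where the match is on the other strand, the core of the cAMP response element bound by CREB. The windows are chr8:84978699-84978998 (minus strand) for Junb, chr15:101266596-101266895 (plus) for Nr4a1, chr12:85473640-85473939 (plus) for Fos and chr4:95052173-95052472 (minus) for Jun. The Nr4a1 window lies inside the annotated gene (chr15:101253902-101274795), so its start is an inner one and not the gene's first base.
Junb: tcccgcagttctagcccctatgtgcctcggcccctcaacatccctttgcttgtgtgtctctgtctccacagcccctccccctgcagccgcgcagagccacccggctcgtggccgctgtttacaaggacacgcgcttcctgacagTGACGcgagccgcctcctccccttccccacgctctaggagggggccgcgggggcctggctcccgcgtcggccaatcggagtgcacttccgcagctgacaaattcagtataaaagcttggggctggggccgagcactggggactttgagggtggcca
Nr4a1: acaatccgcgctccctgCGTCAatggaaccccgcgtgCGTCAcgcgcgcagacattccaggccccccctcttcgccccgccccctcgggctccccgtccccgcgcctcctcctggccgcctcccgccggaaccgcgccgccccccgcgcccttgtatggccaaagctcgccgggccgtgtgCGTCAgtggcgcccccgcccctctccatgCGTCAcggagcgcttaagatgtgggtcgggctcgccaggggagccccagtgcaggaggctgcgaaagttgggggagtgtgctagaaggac
Fos: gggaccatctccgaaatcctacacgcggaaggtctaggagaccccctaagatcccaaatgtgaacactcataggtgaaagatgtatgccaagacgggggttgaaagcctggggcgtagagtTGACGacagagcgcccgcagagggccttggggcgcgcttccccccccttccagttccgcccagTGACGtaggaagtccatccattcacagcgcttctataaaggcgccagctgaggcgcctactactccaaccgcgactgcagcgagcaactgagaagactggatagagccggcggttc
Jun: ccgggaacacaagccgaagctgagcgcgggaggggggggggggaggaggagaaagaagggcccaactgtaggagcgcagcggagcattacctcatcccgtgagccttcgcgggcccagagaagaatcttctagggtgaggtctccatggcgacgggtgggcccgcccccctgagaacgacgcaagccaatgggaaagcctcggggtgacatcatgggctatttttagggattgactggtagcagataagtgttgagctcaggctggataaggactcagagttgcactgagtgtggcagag
The letters were found at 4 places in Nr4a1, 2 in Fos, 1 in Junb and 0 in Jun, counting both strands. They were present in 3 of the 7 members and in 20.8% of 32851 promoters of the same length. The 4 places in Nr4a1 began at positions -233, -213, -69 and -40 from its inner start. Those in Fos began at -129 and -66 from the gene's start, and the one in Junb at -106. The full element TGACGTCA was in 0 of the 7 (1.79% of promoters), the AP-1 element TGANTCA in 0 (7.81%), the EGR element GCGNGGGCG in Nr4a1 and Gadd45b (5.55%), and the MYC element CACGTG in Klf6 and Gadd45b (7.15%). The CArG box, the serum response factor site, was in 0 of the 7 (1.63%). Egr1, Ier2 and Myc have no promoter among the 7, and sequence outside these windows was not searched. In Nr4a1 the EGR match, at -60 to -52 on the other strand, did not overlap the capitals. A match is a stretch of letters only.

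Each member was also set against all genes of the fit, and the 2 genes with the highest r over the 20 mice are named. The r of the first was between 0.72 and 0.91 over the members. Both genes are extremes picked from all genes of the fit, and they were not tested as such. For Fos these were Ctsl, a lysosomal protease (r = 0.76, rho = 0.77), and 1110059G10Rik (0.74, rho 0.67). For Jun they were Eif4g2, a translation initiation factor (0.77, rho 0.73), and Golph3, a Golgi protein (0.74, rho 0.69). For Junb they were Nr1d2, the clock repressor REV-ERB beta (0.74, rho 0.72), and Speer4f1 (0.74, rho 0.82). After Ier2, Egr1 was followed by Ube2b, a ubiquitin-conjugating enzyme (0.75, rho 0.72), and after Egr1, Ier2 by Zfp385b (0.74, rho 0.70). Ier3 was followed by Rflnb (0.80, rho 0.77) and Id2, an inhibitor of basic helix-loop-helix factors (0.76, rho 0.72). Klf6 was followed by Dpysl4 (0.72, rho 0.75) and Osbpl3 (0.67, rho 0.62).

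For Myc and Nr4a1 the r of the nearest genes was well above rho. Myc was followed by Fzd7, a WNT receptor (r = 0.80, rho = 0.60), and Apold1, an endothelial early response gene (0.76, rho 0.44). Nr4a1 was followed by Kdm6b, a histone H3 demethylase (0.86, rho 0.57), and Hip1r (0.80, rho 0.57). The r of Nr4a1 with Hip1r was 0.0476 in MSXH mice and 0.87 in HFD mice, whose replicate 2 had the highest Nr4a1.

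Gadd45b had the most genes at its side. Of 11727 genes, 8.77% had r of at least 0.5 to Gadd45b, against 0.478% for Klf6 at the low end and 3.35% for Jun as the next highest. The share was 2.99% for Fos, 2.67% for Nr4a1, 1.59% for Ier2, 1.36% for Junb, 0.887% for Myc, and 0.81% for both Egr1 and Ier3. Its nearest genes were Denr, a translation re-initiation factor (r = 0.91, rho = 0.84), and Man2a1, a Golgi mannosidase (0.87, rho 0.90). Both held within each diet, at 0.88 and 0.90 in MSXH mice and 0.93 and 0.91 in HFD mice. The array median correlated with Gadd45b at r = 0.58 and with Fos at 0.53, and its part in these values was not tested.

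Lists of related genes were then set against each member, giving 1710 correlations over 20 mice with 171 genes, of which 6 were called by r (0.351%, adjusted over all 1710) and 0 by rho. Gadd45b had 5 of the 6, and the genes are named because they were called. It correlated with Mt1, a zinc-binding metallothionein (r = 0.77, adjusted p = 0.0445), with Cebpd, an acute-phase factor (0.73, adjusted p = 0.0484), with Fkbp5, a glucocorticoid-induced chaperone (0.73, adjusted p = 0.0445), and with Cps1, the first enzyme of the urea cycle (0.74, adjusted p = 0.0445). It ran against Kdr, the endothelial VEGF receptor (-0.78, adjusted p = 0.0445). Cps1 was 1 of 4 hepatocyte markers, over which the r of Gadd45b ran from -0.11 to 0.74 (median 0.29). Cebpd was 1 of 20 other early transcription factors, over which it ran from -0.65 to 0.73 (median -0.17). The sixth was Ier3 with Id2 (0.76, adjusted p = 0.0445). The SD of Ier3 (1.72e-05) was below that of the array median (5.90e-05), and the part of array scaling in this r was not tested. By rho the adjusted p was 0.0513 for Cebpd, 0.149 for Cps1 and 0.0952 for the other 4. The r with Mt1 was 0.64 in MSXH mice and 0.85 in HFD mice, and that with Fkbp5 was 0.82 in MSXH mice and 0.69 in HFD mice.

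All 6 glucocorticoid-induced genes tested had r of at least 0.5 to Gadd45b, from 0.60 to 0.73, where 8.77% of all genes did. Of these 6, Fkbp5 was called by r, the other 5 were not (adjusted p from 0.146 to 0.168), and by rho 0 were called. Both metallothioneins also had r of at least 0.5 (Mt2 0.64), and both had r of at least 0.5 to Fos (Mt2 0.70, adjusted p = 0.0935, and Mt1 0.65). Of the markers of other cell types, Kdr was called with Gadd45b, and 0 of 5 stellate cell markers and 0 of 8 macrophage markers were. Its r ran from -0.58 to -0.071 over the stellate markers (median -0.55), from -0.55 to -0.21 over the macrophage markers (median -0.29), and from -0.78 for Kdr to 0.64 over the 7 sinusoidal endothelial markers (median 0.23). The mean level of the stellate list ran from 8.1585 to 8.1815 in MSXH mice and from 8.1585 to 8.1751 in HFD mice, and that of the endothelial list from 8.4773 to 8.4785 in MSXH mice and from 8.4775 to 8.4782 in HFD mice. Their part in the correlations of Gadd45b was not tested.

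Clock genes were not called with any member. Junb had the most at r of at least 0.5, 4 of the 12 tested, where 1.36% of all genes did. These were Nr1d2 (0.74, adjusted p = 0.0635), Dbp (0.71, adjusted p = 0.0793), Tef (0.66, adjusted p = 0.124) and Per3 (0.65, adjusted p = 0.126). Arntl had r = -0.67 (adjusted p = 0.112). The rest of the list had Nr1d1 at 0.47, Cry2 at 0.37, Per2 at -0.029, Hlf at -0.19, Cry1 at -0.39, Nfil3 at -0.41 and Clock at -0.44. Without the 2 mice farthest from the Junb median, r was 0.62 for Nr1d2, 0.58 for Dbp, 0.46 for Tef, 0.41 for Per3 and -0.61 for Arntl. The r of Junb with Per3 was 0.35 in MSXH mice and 0.80 in HFD mice. The SD of Junb (1.96e-05) was below that of the array median (5.90e-05), and the part of array scaling in the r of Junb was not tested. Nr4a1 had 3 clock genes at r of at least 0.5 (Per3 0.56, Dbp 0.55 and Tef 0.50), with Clock at -0.61 and Arntl at -0.53. Without the 2 mice farthest from the Nr4a1 median, these values were 0.37, 0.33, 0.22, -0.29 and -0.30, in the same order. They were 0.16, 0.17, 0.26, -0.28 and -0.034 in MSXH mice, and 0.68, 0.73, 0.68, -0.88 and -0.76 in HFD mice. At r of at least 0.5, Egr1 had 2 clock genes (Nr1d2 0.57 and Dbp 0.53), Ier2 had 2 (Cry2 0.64 and Dbp 0.50), and Gadd45b had 1. The hour at which each mouse was killed is not given in the labels, and its part in these values was not tested.

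**Figure D5:**
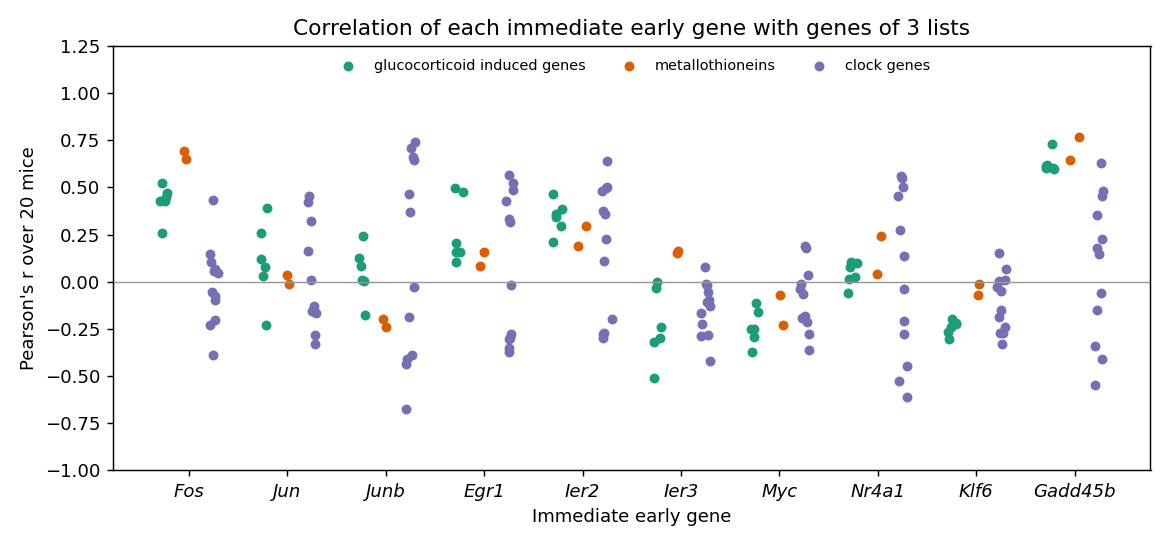
Pearson's r over 20 mice (vertical axis) between each immediate early gene and each gene of 3 lists: 6 glucocorticoid-induced genes, 2 metallothioneins and 12 clock genes, each point a gene. The points of Gadd45b with the first list lie between 0.60 and 0.73, both metallothioneins are high for Fos and Gadd45b, and the clock genes of Junb spread from -0.67 to 0.74.

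In the lists of genes around the early response, 0 were called between the diets in every list. Of 12 AP-1 partners tested, 5 had a g above 0 and 7 below (median -0.342). Batf had g = 0.785 and Batf3 -0.543, and Jund had the highest r to Fos (0.62). Of 20 other early transcription factors, 11 were above 0 and 9 below (median 0.0132), with Id1 at 0.712, Hes1 at 0.606 and Csrnp1, which had r = 0.65 to Fos, at 0.105. Of 25 feedback and signalling genes, 11 were above 0 and 14 below (median -0.0449). Among these Btg2, an antiproliferative gene, had r = 0.66 to Fos, and Dusp1, the phosphatase that ends MAP kinase signalling, had 0.54. Ccn1 had g = 0.647 and Rhob 0.540.

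Of 21 upstream kinases and transcription factors, 10 were above 0 and 11 below (median -0.125), with Ep300, a histone acetyltransferase, at g = -0.852 (unadjusted p = 0.0609). Of 19 genes of the MYC network, 9 were above 0 and 10 below (median -0.0323), with Mlxip at 0.612 and Mga at 0.552. Of 12 heat shock genes, 1 was above 0 and 11 below (median -0.622), with Hspa4 at -1.06 (unadjusted p = 0.0229) and Dnajb1 at -0.840 (unadjusted p = 0.0607). Of 6 inflammatory genes, 2 were above 0 and 4 below (median -0.279), with Il1b at -1.40 (unadjusted p = 0.00360) and Cxcl1 at 1.08 (unadjusted p = 0.0191). The adjusted p was 0.9998 for each gene named in these lists.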

How the data were processed

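Liver RNA of each mouse was labelled from 200 ng of total RNA with a 3' IVT kit, per the labels' protocols. The deposited table holds 45101 probe sets and was read as log2, because its top value is too high for a natural log or log10 of a 16-bit scanner reading. How the authors corrected, normalized and summarised the probes is not stated in the labels, and signal over background is unknown. The number of arrays limits the precision.

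After removal of 64 controls, the platform annotation gave 34945 probe sets 1 gene, 932 several and 9160 none. RefSeq's gene table held the gene numbers of 34741. From the 18193 genes, each at its highest-mean probe set, 11728 reaching the probe sets' median (6.505) were tested. The diets were compared by limma 3.58.1 (R 4.3.3, defaults for lmFit and eBayes) with Benjamini-Hochberg adjustment at 0.05, and each member's difference by permutation. Correlations used 100000 permutations (scipy 1.17.1), adjusted over 45 pairs of members or over 1710 correlations with listed genes. The fits were tested on simulated data. There limma called 0% of genes shifted between the diets by 1 within-diet SD, 62.5% at 2 SD and 99.5% at 3 SD. Promoters came from RefSeq (GRCm38.p6).

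The members and all gene lists were chosen with earlier results of these data known. Named genes were the members, the 2 genes with the highest r to each, and of each list the 2 with the smallest p and the 2 with the highest r to Fos. Those called with a member, and the clock genes set beside members, were named after their values were seen. Alternatives changed the scaling, filter, probe set rule, variance model, weights, test and mice included, and added a replicate block.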

Additional observations from a re-analysis of the deposited data

Results flagged for a closer look

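For each immediate early gene and each diet, the highest and lowest mouse was compared with the others. In 2 of the 20 sets of 10 mice the gap to the nearest mouse, as a share of the whole range, was above Dixon's critical value, where chance gives about 1 (5%). Both were in Myc. MSXH replicate 5 was high in Myc, with a gap of 0.578 of the range, and HFD replicate 5 was high, with a gap of 0.601. They lay at 2.47 SD in MSXH and 2.79 SD in HFD. The gap of Nr4a1 in HFD replicate 2, at 3.39 SD, was 0.449 and stayed below the critical value.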

How the results depend on the processing

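In all 30 alternatives, leaving out each mouse included, 0 genes and 0 members were called between the diets. Genes at an unadjusted p under 0.05 numbered 46 with arrays shifted to one median and 599 with array weights, against 425, each of 11728 genes. They numbered 780 of 18193 genes with no filter and 197 of 6941 genes with a filter at the 75th percentile. After quantile normalization, where genes with at most 2 distinct values were left out, they numbered 110. The labels do not pair the mice: same-numbered mice of the 2 diets correlated between -0.13 and 0.37. For 2 of 20 mice the best match among all other mice of both diets was the same-numbered mouse of the other diet. A replicate block called 0 genes and left 501 at an unadjusted p under 0.05. Fos, Jun, Egr1 and Nr4a1 kept the sign of g in every alternative run. Ier2 turned to 0.28 with arrays shifted, 0.11 with array weights and 0.018 without the 3 mice that stood apart, and lay between -0.21 and 0.11 with 1 mouse left out. Ier3 turned to 0.27 with arrays shifted and 0.072 with array weights, and lay between -0.25 and 0.20. Myc turned to 0.063 with array weights and 0.15 without the 3 mice, and lay between -0.41 and 0.27. Klf6 turned to -0.11 after quantile normalization, and Gadd45b lay between -0.39 and 0.031, above 0 without HFD replicate 9. The count of called pairs, 1, was 2 by Spearman's rho, 8 with arrays shifted, 0 after quantile normalization, 0 in MSXH mice alone, 0 in HFD mice alone, 2 after removing the array median, 2 after removing the GAPDH control, 3 without the 3 mice, and 1 to 2 with 1 mouse left out (2 without MSXH replicate 8 or 9, or HFD replicate 2, 4 or 5). Egr1 with Ier2 had r = 0.32 with arrays shifted (adjusted p = 0.413), -0.32 after quantile normalization, 0.83 in MSXH mice alone (adjusted p = 0.131) and 0.77 in HFD mice alone (adjusted p = 0.212), and between 0.74 and 0.81 with 1 mouse left out. The cause of these changes was not tested. The removal of the array median or the GAPDH control and of the 3 mice (MSXH replicate 5, HFD replicates 2 and 5) was chosen after seeing the data.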

Other observations

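Beside the early response lists, all 7 sinusoidal endothelial markers had a g above 0 (median 0.515, 0 called), with Dnase1l3, a secreted nuclease, at 0.822 (unadjusted p = 0.0721) and Kdr at 0.567, the 2 with the smallest p. Of 3 red blood cell genes, 2 were above 0 and 1 below (median 0.166, 0 called), with Bpgm at 0.981 (unadjusted p = 0.0310) and Hba-a1 at 0.166. Of 8 macrophage markers, 2 were above 0 and 6 below (median -0.121). Of 12 clock genes, 7 were above 0 and 5 below (median 0.0692), with Nfil3 at -0.451 and Nr1d1 at 0.419. Both metallothioneins were below 0 (median -0.304), and of 6 glucocorticoid-induced genes 4 were above 0 and 2 below (median 0.0247), with Igfbp1 at -0.347.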
